A study of Drosophila melanogaster with 2 samples.

Results

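Genes of the Hsp90 and Hsp70 chaperone system were examined for binding of Corto in Drosophila melanogaster embryos. The genes were taken as a list of names, which was drawn up with earlier results of these data known. They were Hsp83, Hsp68, Hsp70Aa, Hsp70Ab, Hsc70-3, Hsc70-4, Hsc70-5, Hsf, DnaJ-1 and stv, 10 of the 13945 protein-coding genes annotated on the chromosome arms. Peak summits were counted within 500 bp of any transcription start site (TSS) of a gene, here called its promoter, and within the whole gene plus 5 kb on either side. Corto is a chromodomain protein of the Enhancer of Trithorax and Polycomb class, and it was mapped by ChIP-seq with an anti-GFP antibody in a transgenic line that stably expresses a Corto fusion carrying GFP at its C terminus. Both libraries came from whole embryos of mixed sex, 0 to 24 h old, and were the 2 biological replicates of 1 group. All values are therefore averages over every cell type and stage of those embryos, no comparison between conditions exists, and no heat treatment is named in the labels.

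Hsp90 and Hsp70 proteins are ATP-driven chaperones that fold, hold and remodel other proteins, and J-domain and BAG-domain co-chaperones start and end the Hsp70 cycle. In flies some of the genes are induced strongly by heat, while the cognate (Hsc) genes are expressed without stress. The heat shock factor, encoded by Hsf, binds as a trimer to heat shock elements, which are alternating GAA and TTC units at a spacing of 5 bases, and activates the inducible genes. GAGA factor, which binds GAGAG repeats, keeps several heat shock promoters open before induction and also acts with Polycomb and Trithorax proteins.

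The deposited data were peak lists without read counts, so sequencing depth is unknown. The pooled list and each replicate's list held 30000 entries of peaks and background, and the optimal set of 2644 peaks, which the authors derived from both replicates, was the strongest 8.81% of the pooled list. Signals are the authors' peak values on a scale that no label or deposited note names, and they are used only within a list. The control behind the lists was not analysed here. Of the optimal summits, 43.7% were nearest to a TSS within 500 bp. The weakest optimal peak had a signal of 81.2 and the strongest 1209. Coordinates are on dm6.

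Corto-GFP was found at the promoters of 5 of the 10 genes in the optimal set: Hsp83, stv, Hsc70-5, DnaJ-1 and Hsc70-3. Of all protein-coding genes, 9.90% had such a summit. Hsp68, Hsp70Aa, Hsp70Ab, Hsc70-4 and Hsf were not among the 5. Expression was not measured here, and bound and unbound genes were not compared by heat induction. In the pooled list 8 of the 10 promoters had a summit, where 39.1% of all genes did, and Hsf and Hsp70Ab were the 2 without. The list of replicate 1 had a summit at 8 of the 10 promoters (48.0% of all genes) and that of replicate 2 at 6 (37.7%). The genes were chosen with results of these data known, and no test was made on their count. Genes with more annotated TSSs offer more places for a summit: of the 5 genes with 1 TSS 1 was bound (6.57% of all such genes), of the 2 genes with 2 or 3 TSSs both were (16.3%), and of the 3 genes with 4 or more TSSs 2 were (40.2%). In the pooled list the same classes had 3 of 5 (30.7%), 2 of 2 (59.1%) and 3 of 3 (87.7%). With a narrower promoter of 250 bp the count was 3, since the summits of Hsc70-3 and stv lay further out.

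**Figure D1:**
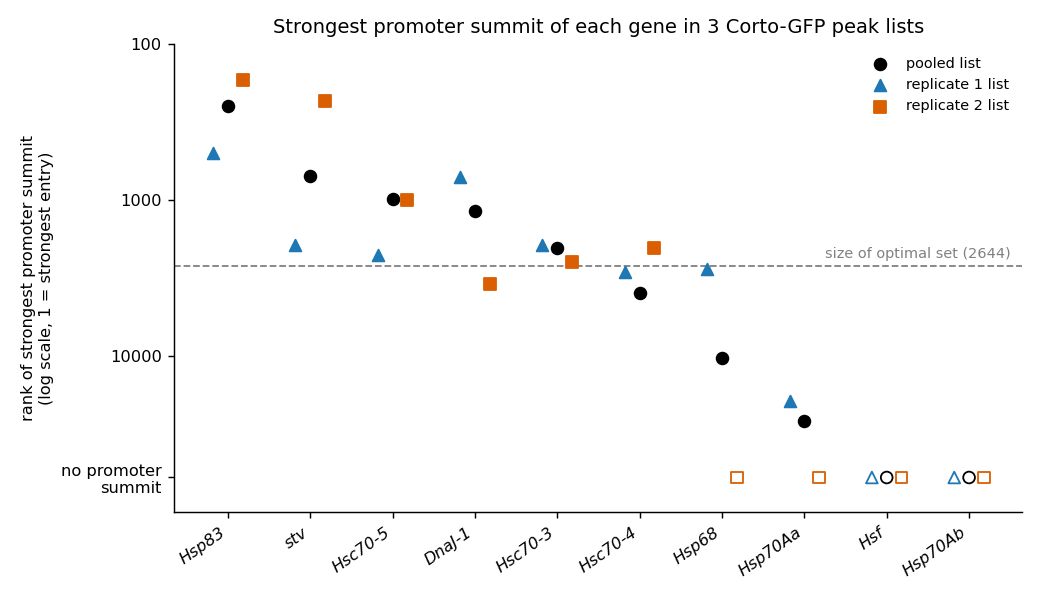
Rank of the strongest promoter summit of each gene (log scale, 1 is the strongest entry) in the pooled list (circles), replicate 1 (triangles) and replicate 2 (squares), with open symbols for no promoter summit and a dashed line at rank 2644, the size of the optimal set. Hsp83 leads the pooled list at rank 250, 5 genes lie above the line in the pooled list, and Hsf and Hsp70Ab have no promoter summit in any of the 3 lists.

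Hsp83 encodes the cytosolic Hsp90 of the fly, which matures kinases and steroid receptors. Of the 10 genes it carried the strongest signals, at 2 optimal peaks. The gene lies at chr3L:3192969-3197059 on the plus strand with TSSs at 3192969 and 3193216. The first peak, chr3L:3193069-3193184, had its summit at 3193129, 87 bp upstream of the downstream TSS and inside the 5′ UTR of the transcript that starts further upstream. Its signal was 225 (rank 250), and it was 91.2 in replicate 1 (rank 498) and 137 in replicate 2 (rank 169). The promoter peaks that ranked next above and next below it in the optimal set belonged to l(2)gd1 and mbl, each with a signal of 225.

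The second Hsp83 peak, chr3L:3194159-3194365, was in an intron with its summit at 3194223, 1007 bp downstream of the nearest TSS. Its signal was 254 (rank 178), higher than that of the promoter peak in the pooled list. In replicate 1 it was also the stronger of the pair, at 143 (rank 131), whereas in replicate 2 it was the weaker, at 117 (rank 259). The order of the 2 peaks thus differed between replicates, and neither can be called the stronger. Both peaks were among the strongest 10% of the set, at 9.46% and 6.73% from the top. Of all protein-coding genes, 9.95% had 2 or more optimal summits in the gene and 5 kb on either side.

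The sequence beside both Hsp83 summits held a pair of heat shock units. The letters GAANNTTC and TTCNNGAA were searched on both strands, and each reads the same on either strand. In the lines below they are in capitals, to show where the units lie. The first line covers 79 to 50 bp upstream of the downstream TSS (chr3L:3193137-3193166), within the first peak, and the second covers 100 bp on either side of the intron summit (chr3L:3194123-3194323). Both read 5′ to 3′ on the plus strand.
Hsp83 promoter: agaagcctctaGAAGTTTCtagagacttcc
Hsp83 intron: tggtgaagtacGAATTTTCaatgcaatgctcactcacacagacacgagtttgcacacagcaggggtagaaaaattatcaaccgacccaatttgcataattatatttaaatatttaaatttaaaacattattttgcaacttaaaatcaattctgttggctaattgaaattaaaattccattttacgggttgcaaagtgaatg
The match in the promoter started 19 bp from the summit, on the downstream side, and that in the intron at position −89 relative to the summit, outside the peak itself. One or other of the 2 letter patterns occurred within 100 bp of 10.8% of the 2644 optimal summits and in 11.2% of windows 1000 bp to either side of them, so the share was no higher at summits than beside them.

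DnaJ-1 encodes an Hsp40, a J-domain protein that delivers clients to Hsp70 and starts its ATP cycle. Its only optimal peak, chr3L:5751974-5752373, had a summit at 5752174, 15 bp downstream of the single TSS of this minus-strand gene (chr3L:5750029-5752189). The signal was 121 (rank 1168). Replicate 1 gave 79.2 (rank 707) and replicate 2 gave 41.0 (rank 3431), so that the peak was within the strongest 2644 entries of replicate 1 and not of replicate 2. The ranks differed 4.85-fold, and 13.7% of optimal peaks differed at least as much, against a median of 1.93-fold. A heat shock unit pair began at −7 bp and ended at the TSS base, as shown in capitals in the sequence from 150 bp upstream to 10 bp downstream (chr3L:5752179-5752339, minus strand, 5′ to 3′).
DnaJ-1: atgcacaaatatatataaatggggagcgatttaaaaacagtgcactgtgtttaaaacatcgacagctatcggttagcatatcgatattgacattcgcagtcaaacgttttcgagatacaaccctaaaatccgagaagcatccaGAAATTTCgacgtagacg

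The gene stv (starvin) encodes a BAG-domain co-chaperone that releases clients from Hsp70 and acts in muscle protein quality control. It had 1 optimal peak, chr3L:13476965-13477364, with a summit at 13477165, 376 bp upstream of the first of its 4 TSSs (gene chr3L:13477541-13483515, plus strand). The signal of 150 had rank 704. Replicate 2 placed a strong summit of 122 (rank 231) 43 bp from it, but replicate 1 had none within 200 bp. There the nearest lay 210 bp away with a signal of 50.4 (rank 1936), 166 bp upstream of the TSS, and a further one with a signal of 46.2 lay at position −631. In the optimal set 96.5% of summits had a summit of both replicates within 200 bp. The position of the stv peak thus rests on replicate 2. Further into the gene the pooled list held weaker intron summits, at positions −514 (63.8) and −276 (62.1) relative to an internal TSS.

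Hsc70-3 encodes the Hsp70 of the endoplasmic reticulum, known in vertebrates as BiP. It lies on the minus strand (chrX:11801696-11807117) with 4 TSSs. Its 2 optimal peaks were weak for the set. The peak at chrX:11805450-11805849 had a summit 286 bp upstream of a TSS, in an intron of the longer transcripts, with a signal of 91.6 (rank 2040) and of 50.4 and 44.9 at the nearest summits of replicates 1 and 2. A slightly stronger replicate 2 summit (47.6, rank 2486) lay at position −157. The other peak had a summit 301 bp upstream of the first TSS and a signal of 84.2 (rank 2448), close to the lowest of the set, with 36.8 and 39.4 in the replicates. Replicate 1 ranked that peak 3818 and replicate 2 ranked it 3709, so it was outside the strongest 2644 of each replicate alone.

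The stv summit and the stronger Hsc70-3 summit had GAGAG, or its complement CTCTC, within 100 bp, in capitals in the following stretches that reach 100 bp to either side of each summit. They are shown because the motif is repeated in both. Not every bound gene had the motif at its summit: the promoter summits of Hsp83, DnaJ-1 and Hsc70-5 had no match within 100 bp. In the 300 bp from 250 bp upstream of each TSS, 33.1% of all promoters had it. Among bound genes, Hsc70-3, Hsc70-5 and stv had it in such a stretch, and Hsp83 and DnaJ-1 did not. Of the genes without an optimal promoter summit, Hsc70-4, Hsp70Aa and Hsp70Ab had it, and Hsp68 and Hsf did not. Hsp70Aa and Hsp70Ab held 6 matches each. They are near-identical copies, and their lack of a peak does not show a lack of Corto-GFP. Whether the motif separates bound from unbound genes was not tested. The weaker Hsc70-3 summit is not described here. The positions are chr3L:13477065-13477265 (plus strand) and chrX:11805550-11805750 (minus strand), each 5′ to 3′.
stv: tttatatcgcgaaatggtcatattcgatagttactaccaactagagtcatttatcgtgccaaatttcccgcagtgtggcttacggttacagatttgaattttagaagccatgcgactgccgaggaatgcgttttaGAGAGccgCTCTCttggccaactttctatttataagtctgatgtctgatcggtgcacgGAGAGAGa
Hsc70-3 at 286 bp: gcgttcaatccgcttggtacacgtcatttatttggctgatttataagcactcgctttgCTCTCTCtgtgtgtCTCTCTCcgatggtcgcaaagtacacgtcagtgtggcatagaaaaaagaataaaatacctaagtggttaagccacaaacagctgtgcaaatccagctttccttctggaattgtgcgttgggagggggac
Each stretch held 4 matches, counting overlapping ones. The motif is common: 30.4% of the 2644 optimal summits had it within 100 bp, against 24.6% of the windows 1000 bp away, which had a mean GC content of 42.2% where the summits had 36.7%. The Hsc70-3 summit at 286 bp also had a heat shock unit pair, TTCNNGAA, starting 73 bp downstream of it.

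**Figure D2:**
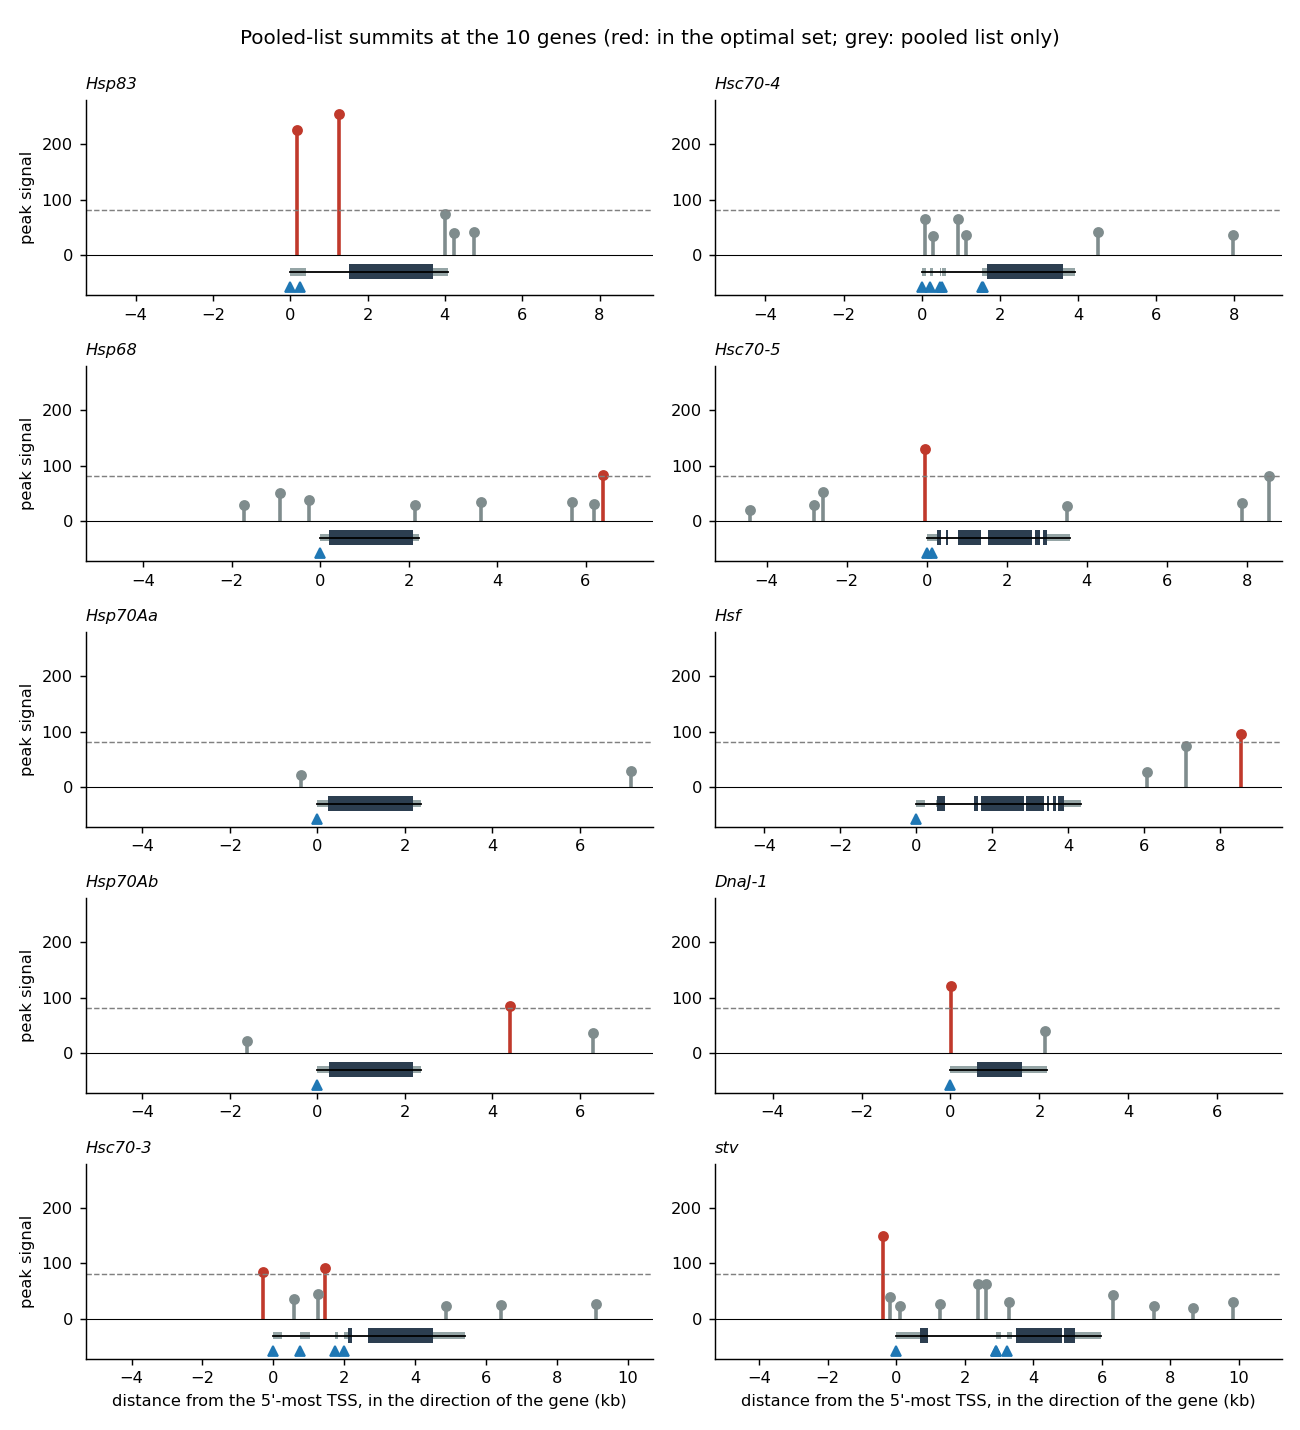
Signal of every pooled-list summit against distance from the 5′-most TSS in the direction of each gene (kb), with summits of the optimal set in red and others in grey, coding exons as thick dark bars, other exons thin, TSSs as blue triangles and a dashed line at 81.2, the weakest optimal signal. Red summits sit at the start of Hsp83, Hsc70-3, Hsc70-5, DnaJ-1 and stv, with another further in at Hsp83 (1254 bp) and Hsc70-3 (1467 bp). Those at Hsp68, Hsp70Ab and Hsf lie beyond the end of the gene.

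Hsp68, Hsp70Aa and Hsp70Ab had no optimal promoter summit. Hsp68 (chr3R:24055080-24057310, minus strand) had a pooled summit 250 bp upstream of its TSS with a signal of 38.5 (rank 10214). Replicate 1 placed a summit 162 bp upstream with a signal of 42.6 (rank 2785), just outside its strongest 2644 entries, and replicate 2 had no promoter summit. Hsp70Aa (chr3R:11954163-11956544, minus strand) had a pooled summit 382 bp upstream with a signal of 21.5 at rank 26192 of 30000, a replicate 1 summit of 15.0 and none in replicate 2. Hsp70Ab (chr3R:11958535-11960909, plus strand) had no promoter summit in any of the lists.

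Hsp70Aa and Hsp70Ab are near-identical inverted copies that point away from each other across 1990 bp, so values at this locus are uncertain. Their gene spans were 99.7% identical over 2382 aligned positions, and their upstream 250 bp were 99.2% identical. Of the 32-base words in the Hsp70Aa span 98.9% occurred elsewhere on the arms, and of those within 500 bp of its TSS 77.2% did. The shares for Hsp70Ab were 99.2% and 81.5%. At the other 8 genes no promoter exceeded 0.103%. How reads with several matches were treated is stated in neither labels nor notes, and so a lack of peaks at this pair does not show a lack of Corto-GFP.

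The same 3 promoters held long heat shock elements. Unit runs were scored in the 300 bp from 250 bp upstream of each TSS, as the longest series of alternating GAA and TTC triplets at steps of 5 bases. Only exact triplets counted, so a single changed letter ended a run. Hsp68 had a run of 5 units starting at −182 bp, and Hsp70Aa and Hsp70Ab had runs of 3 starting at −248 and −249 bp. A run of 3 or more was found in 0.421% of 19253 annotated promoters. The upstream sequences of Hsp68 (chr3R:24057341-24057510) and Hsp70Aa (chr3R:11956575-11956794) are printed to show where the units lie. Each ends 31 bp before the TSS and reads 5′ to 3′ on the minus strand, with GAANNTTC and TTCNNGAA in capitals. They are 170 and 220 bp long, so their matches cannot be set against those in the 30 bp Hsp83 promoter line.
Hsp68: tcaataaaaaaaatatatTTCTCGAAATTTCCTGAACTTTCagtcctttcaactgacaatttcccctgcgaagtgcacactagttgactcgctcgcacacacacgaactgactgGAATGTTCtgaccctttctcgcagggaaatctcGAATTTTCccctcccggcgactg
Hsp70Aa: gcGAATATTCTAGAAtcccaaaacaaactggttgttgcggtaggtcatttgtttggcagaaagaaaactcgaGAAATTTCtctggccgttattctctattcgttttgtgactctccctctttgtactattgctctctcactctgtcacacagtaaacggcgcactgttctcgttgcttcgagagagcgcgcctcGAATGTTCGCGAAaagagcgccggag

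Hsc70-4, which encodes the main cytosolic Hsp70 of unstressed cells, came closest to the optimal set without entering it. The gene (chr3R:15242687-15246614, plus strand) has 6 TSSs and had 4 pooled promoter summits. The strongest, 71 bp downstream of the first TSS, had a signal of 65.8 (rank 3967), and another, in an intron 427 bp downstream of a TSS, had 65.5 (rank 3995). The replicates favoured different ones. Replicate 1 gave 41.7 (rank 2907) near the first and 31.1 (rank 5297) near the second, and replicate 2 gave 20.8 (rank 12114) and 52.3 (rank 2022). Hsc70-4 would thus have counted as bound among the strongest 2644 entries of replicate 2 alone (8.78% of all genes), where DnaJ-1 would not. In the strongest 2644 of replicate 1 (11.8% of all genes) the 5 bound genes were those of the optimal set. Hsc70-4 also had a run of 3 heat shock units, starting at −205 bp from the TSS at 15243156. This run lies downstream of the first TSS, inside a 5′ UTR exon of the gene. It is shown in capitals (chr3R:15242943-15242972, plus strand, 5′ to 3′).
Hsc70-4: ggcaaggtTTCTCGAACTTTCgaccccagt

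**Figure D3:**
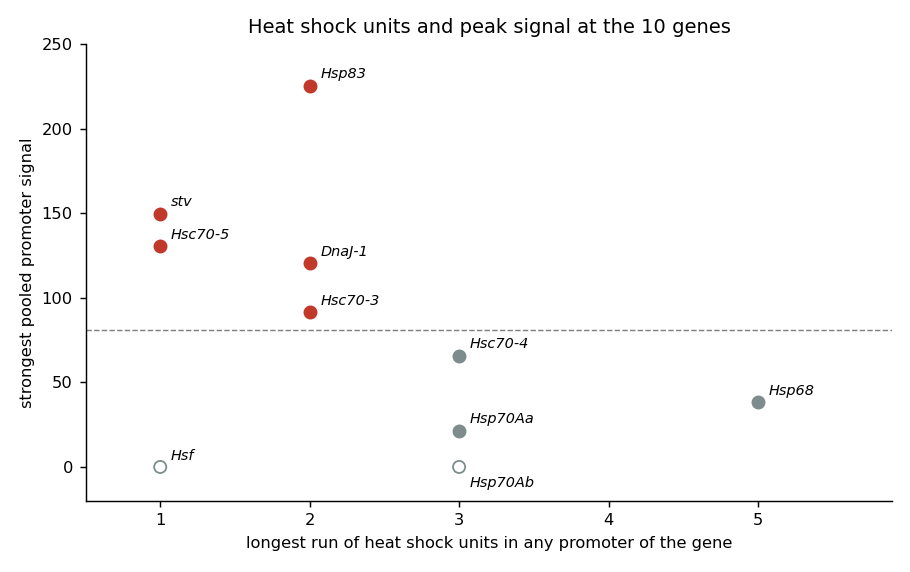
Strongest pooled promoter signal of each gene against the longest run of heat shock units in any of its promoters, with genes of the optimal set in red, others in grey, open circles at 0 for no pooled promoter summit and a dashed line at 81.2. The 4 genes with 3 or more units lie below the line, and the 5 red genes have 1 or 2 units. Only units with exact letters are counted.

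The 4 genes with a run of 3 or more units (Hsc70-4, Hsp68, Hsp70Aa and Hsp70Ab) had no optimal promoter summit, while 5 of the 6 others did. In the pooled list 3 of those 4 and 5 of the 6 others had a promoter summit. Over all genes the pooled shares were 49.4% with such a run and 39.1% with shorter runs or none. Among the other chaperone genes, 5 had such a run (DnaJ-H, Hsp70Ba, Hsp70Bb, Hsp70Bbb and Hsp70Bc). Of these, 0 had an optimal promoter summit and 1 had a pooled one. The 4 Hsp70B genes had no summit within 5 kb in either list, and how far they are repeated sequence was not measured. The counts are small, the Hsp70A pair is repeated sequence, and the grouping depends on exact letters. In the Hsp83 promoter line above, CTC precedes and GAG follows the pair at the same spacing, with GAA and TTC beyond them. A score that allows changed letters was not made, and it could place Hsp83 among the longer runs. Over all genes, of 79 genes with such a run 12 were bound (15.2%), as were 9.87% of the 13866 with shorter runs or none. Neither the difference between those shares nor that in the pooled list was tested.

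Hsc70-5 encodes the mitochondrial Hsp70 and came after Hsp83 and stv in pooled promoter signal. Its replicate summits lay closer to the peak than those of stv. The gene lies at chr2R:14252598-14256192 on the minus strand, and its peak, chr2R:14256023-14256422, had a summit 31 bp upstream of the first of 2 TSSs. The signal was 130 (rank 980), with 47.0 in replicate 1 (rank 2238) and 70.7 in replicate 2 (rank 1001) at summits 17 and 8 bp away. The summit was also 270 bp from the TSS of CG8531, on the opposite strand, and so counted for that gene as well.

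Hsf, the gene of the heat shock factor itself (chr2R:18130303-18134634, minus strand), had no promoter summit in any list. Its single optimal summit within 5 kb of the gene, with a signal of 95.8 (rank 1854), lay beyond its 3′ end, 246 bp from the TSS of Spn55B and 322 bp from that of stau. The optimal summits near Hsp68 (83.7) and Hsp70Ab (83.9) were likewise at promoters of other genes, Pisd and Atg6 in the first case and CG3281 and aurA in the second. Of the 10 optimal summits in the windows of the 10 genes, 6 were thus at their own promoters, 1 was in the Hsp83 intron and 3 were at neighbours. At least 1 optimal summit lay in the window of 8 genes, where 28.5% of all genes had one.

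The 6 promoter summits were spread from 376 bp upstream to 15 bp downstream of the TSS. Over the 1156 optimal promoter summits the median was 121 bp upstream, with quartiles of −212 and −38.8 bp. The summits of Hsc70-3 and stv lay beyond the outer quartile, those of Hsc70-5 and DnaJ-1 inside the inner one and that of Hsp83 between them. No common distance to the TSS was therefore seen.

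**Figure D4:**
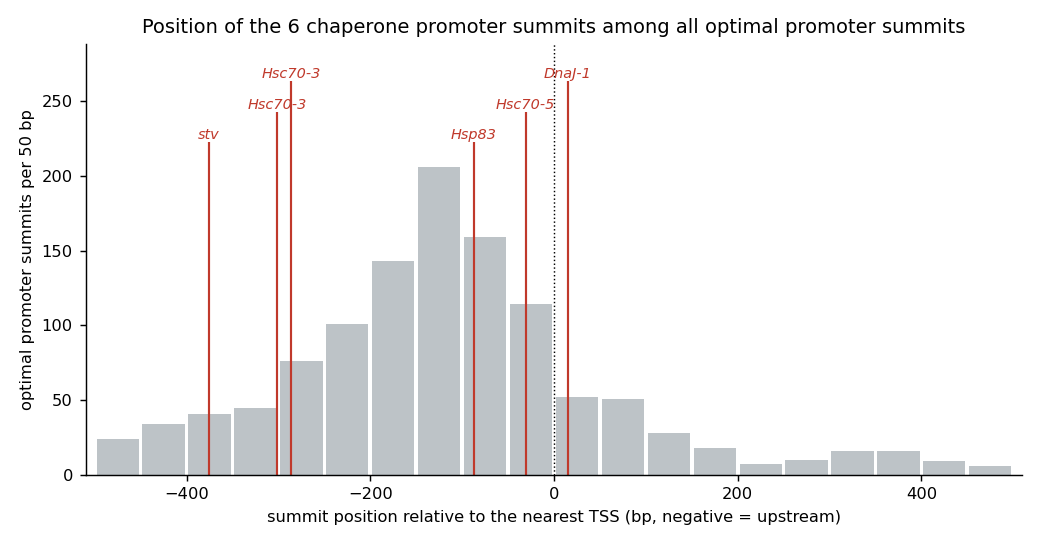
Number of optimal promoter summits per 50 bp (grey bars) by position relative to the nearest TSS (bp, negative is upstream), with the 6 chaperone promoter summits as red lines. The red lines at −376, −301, −286, −87, −31 and 15 bp cover both sides of the peak of the distribution.

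**Figure D5:**
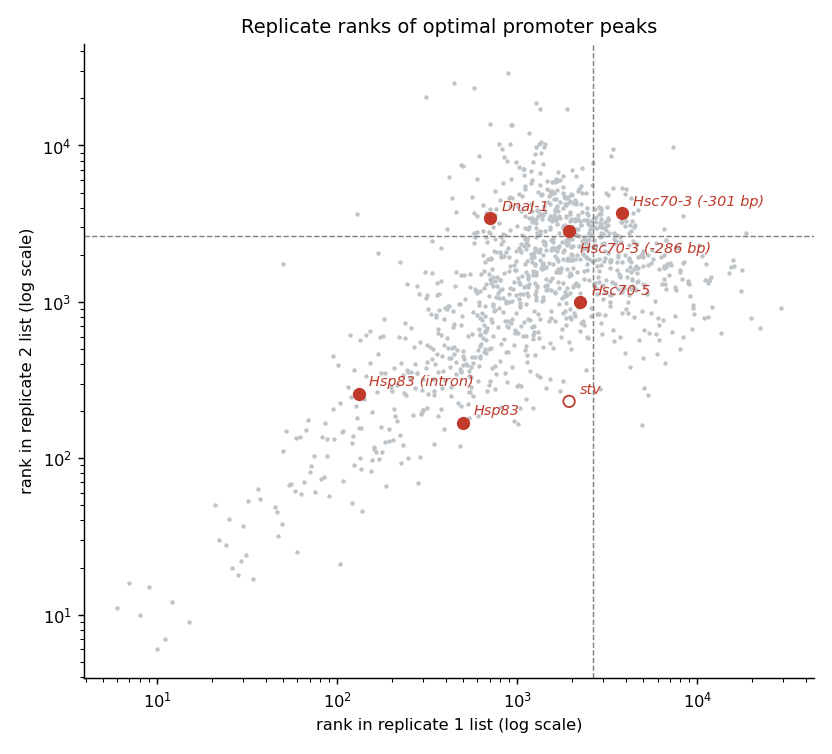
Rank in replicate 1 against rank in replicate 2 (log scales) for optimal promoter peaks with a summit of both replicates within 200 bp (grey) and for the peaks of Hsp83, Hsc70-3, Hsc70-5, DnaJ-1 and stv (red, with the Hsp83 intron peak added and stv open because replicate 1 had no summit within 200 bp), with dashed lines at rank 2644. The Hsp83 peaks rank 131 to 498 in both replicates, while DnaJ-1 is within the line in replicate 1 only. Each point uses the nearest summit of a replicate, which for the stronger Hsc70-3 peak ranks 2826 in replicate 2 although a summit of rank 2486 also lies within 200 bp.

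Of 40 matched genes outside the 10, 8 had an optimal promoter summit, where 9.90% of all genes did, and 18 a pooled one, where 39.1% did. No test was made on these lists. Of 7 other Hsp70 family genes only Hsp110 (listed under its older name Hsc70Cb), a nucleotide exchange factor of the family, was bound, with a signal of 91.3. The 4 Hsp70B genes had no summit within 5 kb in the optimal or pooled list, and their own share of repeated sequence was not measured. Of 9 listed Hsp90 family and co-chaperone names 6 matched a gene, and none of these was bound (Gp93, Trap1, Cdc37, p23, Fkbp59 and unc-45). Hop, Ahsa1 and CHIP matched no gene and so were not examined. Of 7 Hsp40 genes 2 were bound, mrj with a signal of 172 and jdp with 84.2. Of 13 chaperonin and exchange factor genes 1 was bound, Hsp60A, the mitochondrial chaperonin, with a pooled signal of 100.04 and a replicate 1 signal of 69.3, while replicate 2 had no promoter summit there. In the small heat shock cluster at 67B, 4 of 7 genes were bound, with Hsp27 at 622, Hsp26 at 169, Hsp23 at 92.2 and Hsp22 at 83.4, so that the Hsp27 signal was above that of each of the 10 genes.

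Weak entries of the pooled list, which holds background as well as peaks, also lay at the 3′ ends of some of these genes. In the pooled list, 5 of the 10 genes had a summit inside their own 3′ UTR (Hsp83, Hsp68, Hsc70-3, Hsc70-5 and DnaJ-1), where 11.3% of the 13534 genes with an annotated 3′ UTR did. None was in the optimal set, in which 0.325% of genes had such a summit. The one at Hsp83 was the strongest, with a signal of 73.3 at rank 3274, and those of DnaJ-1 (40.3), Hsp68 (29.2), Hsc70-5 (26.9) and Hsc70-3 (23.3) followed. Their deposited −log10 q values were 1.51 at Hsp83 and 0.255 to 0.631 at the others, below the lowest of the optimal set (1.79). Whether these entries are more than background was not tested. Each replicate list had 4 of the 10 genes, with Hsp83 and Hsc70-3 in both, beside 13.8% of all genes in replicate 1 and 10.6% in replicate 2. This count was made after other values were seen, and no test was made.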

How the data were processed

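ChIP-seq was done on 2 biological replicates of Corto-GFP embryos, with chromatin sonicated to 200 to 800 bp per the labels. The authors deposited narrowPeak lists with a peak signal, a −log10 q value and a summit offset. Per the deposited notes, replicate and pooled lists were made from alignments and a control, and the optimal set from the 3 lists by the irreproducible discovery rate. Neither labels nor notes name the aligner, the peak caller, its threshold or the filters on reads. The dm3 lists and control reads were not used.

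Summits (peak start plus offset, 1-based) were compared with TSSs of protein-coding transcripts in Ensembl release 115 (19607 gene and TSS pairs). Sequence came from NCBI's Release 6 genome, the same assembly, in which 99.5% of coding sequences started with ATG. The calculations used pandas 2.3.3 and numpy 2.4.6 and were tested on simulated summits and motifs. The −log10 q values deposited by the authors were not used for ranking.

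With 1 group and a chosen list, no test was made. The genes, lists and motifs were chosen with earlier results of these data known, and unit runs after their sequence was seen. All 10 genes are named, as are genes at their optimal summits and bound genes of 5 chaperone lists. Of 44 listed names, 40 matched a gene, and Hop, Ahsa1, CHIP and l(2)tid did not. Alternatives changed windows, flanks, lists, match distances and motif windows. The sequence at 1 Hsc70-3 summit is not reported here.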

Additional observations from a re-analysis of the deposited data

How the results depend on the processing

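Of the alternatives tried, 4 moved a value by more than 1.5 times or beyond the spread of the replicates. A promoter of 250 bp left 3 bound genes of the 10 (7.72% of all genes), without Hsc70-3 and stv. The stronger part of the optimal set, 1322 peaks, held 5 summits within the gene windows in place of 10. The signal of the Hsp83 promoter peak, 225 in the pooled list, was between 91.2 and 137 in single replicates. Those are separate lists on their own scale, so these moves are no measure of how stable the peak is. Leaving out either replicate gave 5 bound genes each time, but without replicate 1 these held Hsc70-4 in place of DnaJ-1. It gave 9 to 12 summits in the windows and 6 to 8 genes with a summit in the whole list. For recurrence the optimal set, derived from both replicates, was kept and only the match to 1 replicate was dropped. That gave 4 to 5 genes, a count in part built in. No paired analysis was possible because there is 1 group. Counting motif windows of 50 and 200 bp, chosen after seeing the data, gave 2 and 4 promoter summits with a heat shock unit pair, against 3. A wider window holds more matches by length alone. The share over all optimal summits was counted only at 100 bp (10.8%), so these counts show neither stability nor change. Depth is unknown, so a gene without a peak cannot be told from one below detection.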
